A study of Cricetulus griseus with 24 samples.

Results

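Collagens, laminins and integrins are the main structural proteins of the extracellular matrix and the receptors through which cells hold on to it. Their genes were taken from the RNA-seq count table of Chinese hamster ovary (CHO) cells by symbol: Col, a number, a and a number for collagen chains, Lama, Lamb or Lamc and a number for laminin chains, and Itga or Itgb and a suffix for integrin subunits, leaving out symbols of binding proteins. This gave 73 of the 28037 genes in the table, namely 37 collagens, 10 laminins and 26 integrin-named genes. One of the last, Itgbl1, is named for a likeness to beta integrins and is no receptor subunit. No gene in the table carried the symbol Col4a5, Col4a6, Col5a1, Col5a2, Col24a1 or Lama2. Sums and counts of a family therefore cover only the chains named in the table. The samples were 3 CHO lines in serum-free suspension culture, each at exponential and at stationary phase. A0 is a low-producing CHO DG44 line that makes a humanized IgG from co-transfected heavy and light chain plasmids, with the transgene under the CMV promoter. A1 is the progeny of A0 after stepwise gene amplification in methotrexate, and shares the transgenes with it. CHO-S is another CHO line, labelled without a product. The titles of its samples carry the tag NDST, which was not interpreted, so a modification of this line cannot be told from the title. A0 was sampled in 4 cultures at each phase, and A1 and CHO-S in 3 cultures at each phase, which gave 20 culture samples. The same culture numbers recur at both phases of a line. The tests between phases treat these samples as independent unless a block for the culture is named. The 8 exponential libraries of A0 carry 4 culture numbers (the second library is marked RLT for cultures 1 and 2 and Duplicate for cultures 3 and 4) and were summed per culture. Each line was sampled as 1 line, so the spread between its cultures is the only replicate error.

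Collagen chains assemble in threes into a helix. Type IV chains form the sheet of the basement membrane together with laminins, which are trimers of an alpha, a beta and a gamma chain, whereas fibrillar types form the fibres of connective tissue and type VI forms beaded filaments. Integrins are pairs of an alpha and a beta subunit that bind these proteins outside the cell and connect to the actin skeleton inside. CHO cells came from hamster ovary and grow attached in serum, and production lines such as these have been adapted to grow as single cells in suspension.

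Library depth ranged from 1038026 to 14652646 counts on genes, with a median of 12166034, and the 73 genes took 0.427% to 0.578% of the counts in A0 and A1 libraries and 0.896% to 1.60% in CHO-S libraries. Some libraries stood apart within their groups. At stationary phase the A0 cultures fell into pairs, 1 and 2 against 3 and 4. The chi-square per degree of freedom over all genes was then 15.7 to 19.2 between the pairs and 3.74 and 2.77 within them. Cultures 3 and 4 were no such pair at exponential phase, where their first libraries differed by 11.7. The first libraries of cultures 1 and 3 differed by 10.6 at that phase, and those of cultures 1 and 4 by 16.7. At exponential phase the RLT library of A0 culture 1 differed from the first library of that culture by 26.8, while the first libraries of cultures 1 and 2 differed by 2.43, and what RLT stands for is not given in the labels. CHO-S stationary culture 1 had the 1038026 counts and a share of 0.896%, against 1.55% to 1.60% in the other 2 cultures of its group. A1 exponential culture 1 carried Col4a1 and Col4a2 at 1.24% and 1.26% of their CHO-S level. The 13 genes at 50 CPM or more in CHO-S and under 0.5 CPM in A1 exponential cultures 2 and 3, Col4a1 among them, had a median of 1.36% of the CHO-S level in culture 1. In cultures 2 and 3 the medians were 0.0955% and 0.0084%, where the choice of genes itself requires low values. The reverse choice, of genes low in culture 1, was not made.

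The lines were checked against marker genes. Of 5 mesenchymal markers, Vim, S100a4 and Pdgfrb reached 1 CPM in all 3 lines, Cdh2 was at 67.6 CPM in A0, 51.9 in A1 and 0 in CHO-S at exponential phase, and Thy1 was at or near 0 in each line. The other lists summed to far less than the mesenchymal one, which ran from 1025 to 1971 CPM in A0, 1453 to 1639 in A1 and 1491 to 2697 in CHO-S over all cultures. Each of them had 1 marker at 1 CPM or more, apart from the epithelial list in CHO-S, which had none: Epcam of 4 epithelial markers measured, with sums of 1.65 to 3.12 CPM in A0, 2.22 to 3.85 in A1 and 0 to 0.251 in CHO-S, Lcp1 of 4 haematopoietic markers (11.1 to 53.1, 6.79 to 11.9 and 2.06 to 12.1 CPM), Pecam1 of 4 endothelial markers (1.17 to 2.72, 1.71 to 3.55 and 2.06 to 7.72 CPM) and Amh of 2 granulosa markers measured (1.401 to 2.25, 1.45 to 1.89 and 0 to 2.42 CPM). Of the other markers on these lists, Ptprc, Cd34, Laptm5, Kdr, Krt8, Krt18 and Fshr were at 0 or under 0.1 CPM in each line. Cdh1 and Cdh5 reached 0.746 and 0.609 CPM in A0 and Tek 0.728 CPM in A1, as highest group means. Pdgfrb (15.6, 26.3 and 199 CPM in A0, A1 and CHO-S at exponential phase), Cdh2, Epcam and Lcp1 moved with the lines, and the part of these markers in the results was not tested.

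Of the 73 genes, 38 reached a mean of 1 CPM (counts relative to library size, scaled by TMM) in at least 1 of the 6 groups: 18 collagens, 7 laminins and 13 integrins. By line, 35 were expressed at this level in A0, 34 in A1 and 33 in CHO-S at either phase, 31 in all 3 lines and 28 in all 6 groups. They included Col5a3, Col6a1, Col6a2, Col7a1, Col8a1, Col12a1, Col16a1, Col17a1, Col18a1, Col20a1, Col27a1, Lama3, Lama5, Lamb1, Lamb2, Lamc1, Itga1, Itga2b, Itga3, Itga5, Itga6, Itga7, Itgav, Itgb1, Itgb4, Itgb5 and the gene listed as Col4a4. Col4a1, Col4a2 and Itgae reached 1 CPM in all 3 lines, but not in every group. In A1, Col4a1 and Col4a2 did so only through exponential culture 1 (45.2 and 8.51 CPM). Every other A1 culture had 0.569 CPM or less of each. The counts of 34 in A1 and 31 in all 3 lines include both genes.

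A few members reached the limit in some lines and not in others. Col11a2, Col15a1 and Lama1 did so in A0 alone, Col8a2 in A1 alone (at stationary phase) and Itga10, the alpha 10 subunit of a collagen receptor, in CHO-S alone. Col3a1, the chain of fibrillar type III collagen, did so in A1 and CHO-S, and Itga8, the alpha subunit of a receptor for RGD-containing proteins, in A0 and A1. Several of these lay close to the limit: the highest group means just above it were 1.14 CPM for Col8a2, 1.28 for Lama1 and 1.56 for Col15a1, and those just below it were 0.893 CPM for Col25a1, 0.782 for Itga9 and 0.757 for Col9a3.

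The other 35 genes stayed below 1 CPM in every group: 19 collagens, 3 laminins and 13 integrin-named genes. They include both chains of type I collagen, Col1a1 and Col1a2, the cartilage collagens Col2a1, Col9a1, Col9a2, Col9a3 and Col10a1, and Col6a3, the partner of Col6a1 and Col6a2 in the classical type VI trimer. The leukocyte subunits Itgal, Itgam, Itgax, Itgb2 and Itgb7 were among them, as were Itgb3, Itgb6, Itga2, Itga4 and Itga11. Col4a3 and Itgb8 had no count in any library. At these depths a mean under 1 CPM is a low level and does not show that a gene is silent.

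**Figure D1:**
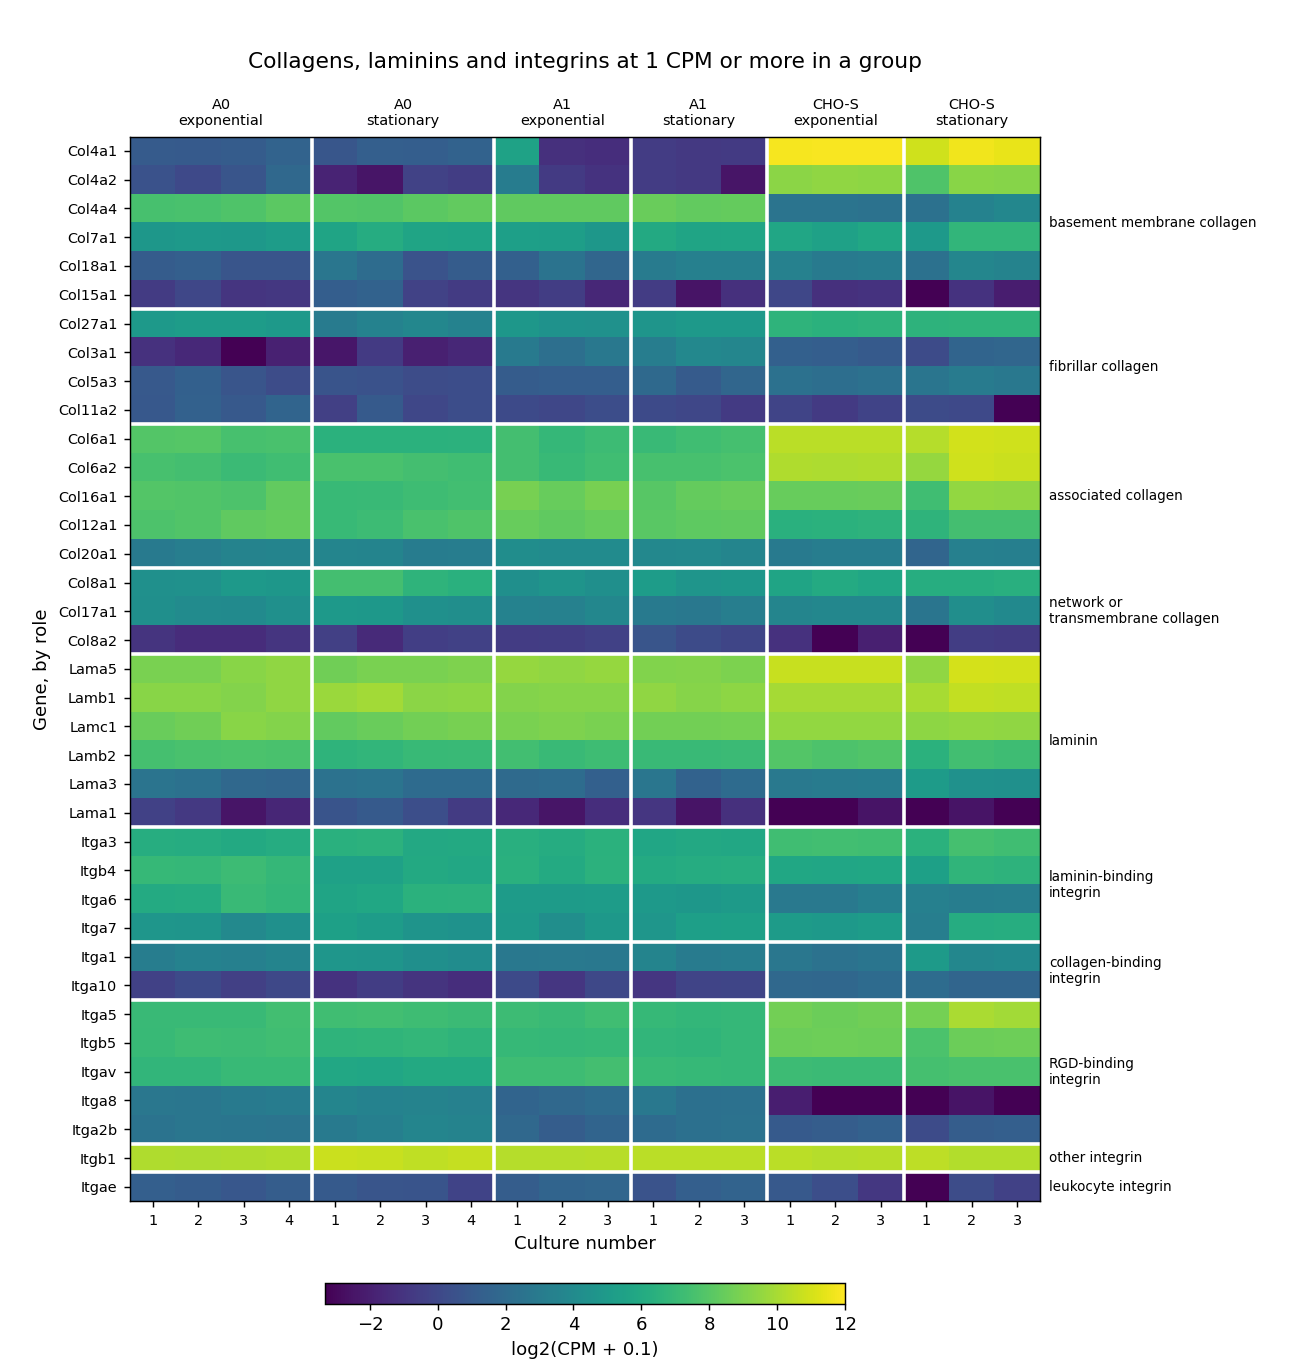
Level of 37 of the 38 genes that reached 1 CPM in a group, as log2(CPM + 0.1) by colour, with 1 row per gene ordered by role and 1 column per culture. Col4a1, Col4a2, Col6a1 and Col6a2 are brighter in the CHO-S columns. Itga6, Itga8 and the gene listed as Col4a4 are brighter in the A0 and A1 columns, and A1 exponential culture 1 differs from its neighbours in Col4a1 and Col4a2.

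Summed over its members, each family was higher in CHO-S than in the 2 DG44-derived lines. The collagens summed to 1248 ± 122 CPM in A0 (SD, n = 4), 1507 ± 158 in A1 (SD, n = 3) and 7477 ± 74.5 in CHO-S (SD, n = 3) at exponential phase. Without Col4a1 and Col4a2 the sums were 1244 ± 121, 1489 ± 136 and 3163 ± 45.4. The laminins summed to 1896 ± 247, 1982 ± 15.8 and 3634 ± 41.3 CPM, and the integrins to 1910.3 ± 94.0, 1939 ± 68.8 and 2500.2 ± 65.3. At stationary phase the collagens summed to 1097 ± 25.4 CPM in A0, 1459 ± 86.8 in A1 and 7328 ± 2352 in CHO-S, the laminins to 1776 ± 94.5, 1781 ± 57.5 and 3806 ± 1099, and the integrins to 2232 ± 95.8, 1937 ± 27.4 and 2916 ± 436. Without CHO-S culture 1 the CHO-S sums at that phase were 8676 ± 388 for the collagens, 4438 ± 152 for the laminins and 3163 ± 119 for the integrins (SD, n = 2). CHO-S cultures did not overlap with A0 or A1 cultures in any of the 3 sums at exponential phase, and A0 and A1 overlapped in each of them, also in the collagens without Col4a1 and Col4a2. Counts were not divided by gene length, so a sum weighs long and strongly expressed genes most and levels are compared here only within a gene or a fixed set of genes.

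**Figure D2:**
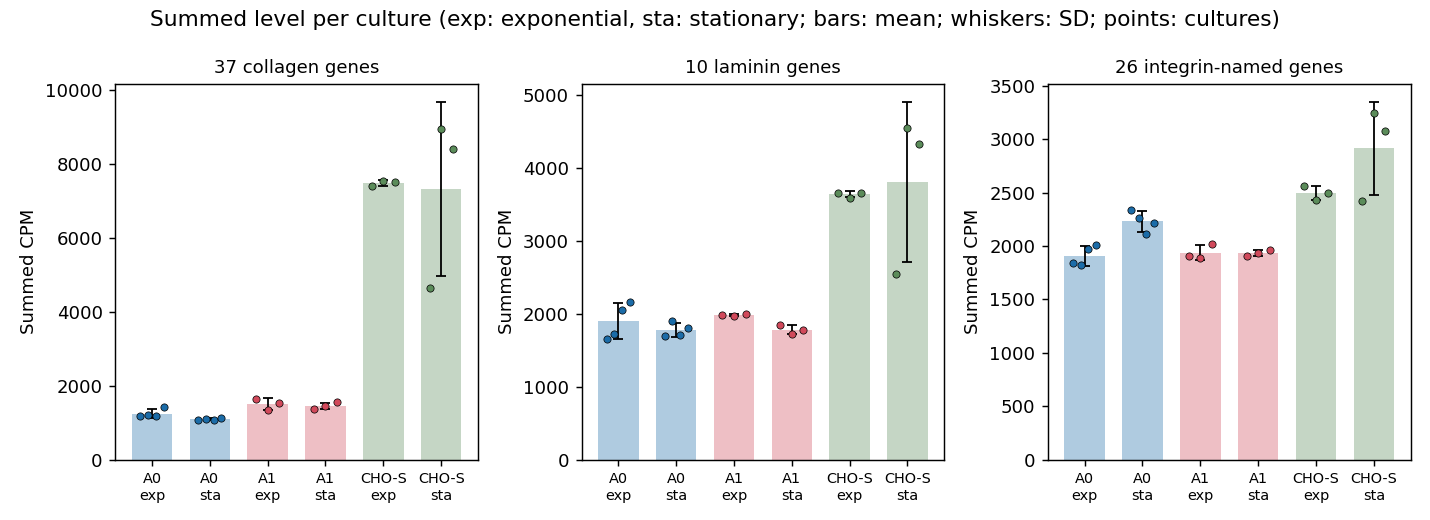
Summed CPM of the 37 collagens, 10 laminins and 26 integrin-named genes per culture, by line and growth phase, with bars for the mean and whiskers for the SD. CHO-S lies above A0 and A1 in each panel (7477 against 1248 and 1507 CPM for the collagens at exponential phase), and the lowest CHO-S stationary point in each is culture 1.

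Which matrix genes separate the DG44-derived lines from CHO-S was asked first, with edgeR's quasi-likelihood test and Benjamini-Hochberg adjustment over all genes (threshold 0.05). Of the 73 members, 67 passed the low-count filter between A0 and CHO-S at exponential phase, and 41 had an adjusted p under the threshold, 18 higher and 23 lower in A0, against 49.5% of all 19966 genes tested (27.6% higher and 21.9% lower). Between A1 and CHO-S it was 36 of 60, 17 higher and 19 lower in A1, against 57.2% of 18488 genes (30.0% higher and 27.1% lower), and 35 without A1 exponential culture 1, against 56.3%. At stationary phase it was 29 of 63 for A0 (9 higher, 20 lower), against 40.0% of all genes (20.7% higher and 19.3% lower), and 30 of 61 for A1 (10 higher, 20 lower), against 34.8% (18.2% higher and 16.6% lower). Without CHO-S stationary culture 1 the counts rose to 36 for A0 and 41 for A1, against 51.8% and 57.4% of all genes. Among members at a mean of 1 CPM or more in the 2 groups, the median log2 fold change at exponential phase was -0.63 for A0 and -0.56 for A1 over CHO-S, and over all genes at that level it was 0.036 and -0.0012. All comparisons with CHO-S at a phase share its cultures.

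Among members at 5 CPM or more in either line, the largest falls in A0 and A1 were in type IV collagen. Col4a1 (gene 100757740), the alpha 1 chain of the basement membrane network, was at 3543, 3725 and 3651 CPM in the CHO-S exponential cultures and at 2.00, 1.92, 2.09 and 2.84 in those of A0. In A1 it was at 45.2, 0.341 and 0.305 CPM. Every CHO-S culture lay far above every culture of the other lines. The log2 fold change was -10.67 ± 0.14 (adjusted p = 1.9e-15) in A0 against CHO-S. From here on, the values that follow a gene's levels or stand in parentheses after its name are log2 fold changes, with the standard error after the ± sign. In A1 it was -7.91 ± 0.49 (adjusted p = 1.6e-12), and -13.44 ± 0.12 (adjusted p = 1.5e-33) without A1 exponential culture 1. Its partner chain Col4a2, the next gene on the chromosome in the RefSeq annotation of the assembly CriGri-PICRH-1.0, was at 653, 693 and 677 CPM in CHO-S and 1.35, 0.959, 1.56 and 3.52 in A0. The A1 cultures were at 8.51, 0.512 and 0.381 CPM, with culture 1 above the others. The log2 fold change was -8.51 ± 0.26 (adjusted p = 4.3e-12) for A0 and -7.76 ± 0.25 (adjusted p = 1e-17) for A1, and without A1 culture 1 it was -10.56 ± 0.12 (adjusted p = 3.8e-31) for A1. At stationary phase Col4a1 was at 1882, 3221 and 2922 CPM in CHO-S, 1.58, 2.35, 2.34 and 2.70 in A0 and 0.569, 0.472 and 0.499 in A1, and the 3 lines did not overlap. As these are bulk libraries, fewer cells with a transcript and less transcript per cell cannot be told apart.

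The gene listed as Col4a4 (gene 100759871) went the other way. It was at 188, 191, 223 and 280.2 CPM in A0, 305, 308 and 308 in A1 and 5.93, 5.85 and 5.39 in CHO-S at exponential phase, with a log2 fold change of 5.28 ± 0.17 (adjusted p = 6e-12) for A0 and 5.74 ± 0.066 (adjusted p = 1.6e-25) for A1 over CHO-S. RefSeq lists this gene by a locus number only and places it beside Col3a1. The usual neighbour of a Col4a4 gene is Col4a3, so the name in the table is uncertain. Its place here among the type IV and basement membrane chains rests on that name alone. Of the chains that mark basement membranes in a wider sense, Col18a1, the core of a heparan sulfate proteoglycan, was 1.90 ± 0.41 CPM in A0, 3.82 ± 1.70 in A1 and 9.06 ± 1.396 in CHO-S. Col18a1 was lower in A0 than in CHO-S (-2.24, adjusted p = 2.2e-07).

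Both expressed chains of type VI collagen, which forms filaments around cells, were several-fold higher in CHO-S. Col6a1 was at 1363, 1337 and 1339.7 CPM in CHO-S, 239, 248, 184 and 196 in A0 and 173, 116 and 147 in A1 at exponential phase. Col6a2, its neighbour in the RefSeq annotation, was at 1147, 1093 and 1135 CPM in CHO-S, 183, 172, 139.9 and 160.3 in A0 and 171, 127 and 159 in A1. The groups of CHO-S and of the other lines did not overlap for either gene. Log2 fold changes against CHO-S were -2.62 ± 0.11 (adjusted p = 1.2e-10) in A0 and -3.21 ± 0.083 (adjusted p = 2.2e-19) in A1 for Col6a1, and -2.77 ± 0.10 (adjusted p = 2.3e-11) and -2.89 ± 0.07 (adjusted p = 6.6e-20) for Col6a2. At stationary phase those of Col6a1 were -4.28 and -3.48, and without CHO-S culture 1 they were -4.42 and -3.65. Their usual partner Col6a3 had a highest group mean of 0.722 CPM.

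Among the other collagens, Col27a1, a fibrillar chain of cartilage and other tissues, was 94.1 ± 4.07 CPM in CHO-S at exponential phase and 32.6 ± 2.92 in A0 (-1.52, adjusted p = 6.7e-09), and was lower in A1 too (-1.99). Col8a1, a network collagen of vessel walls and the cornea, was lower in A1 than in CHO-S at both phases (-1.43 and -1.41). In A0 its log2 fold change was -1.17 at exponential phase and 0.75 at stationary phase, and this last call was lost without either of A0 cultures 1 and 2 or of CHO-S cultures 2 and 3 (adjusted p up to 0.12). Col12a1, which decorates the surface of collagen fibres, was higher in both DG44-derived lines at exponential phase, with 266 ± 58.7 CPM in A0, 335 ± 20.3 in A1 and 90.0 ± 6.19 in CHO-S (log2 fold changes 1.58 ± 0.15, adjusted p = 5e-07 and 1.89 ± 0.056, adjusted p = 2.1e-18).

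Laminin chains were measured at a mean of 1 CPM or more over the groups compared in 6 cases, and each of these that was called was higher in CHO-S, at both phases. At exponential phase 5 of 6 chains were lower in A0 and 5 of 6 in A1, and at stationary phase 4 of 6 in each. Among all genes at that level, 31.2% and 36.9% were lower in A0 and A1 at exponential phase and 25.3% and 21.4% at stationary phase. Lama5, the alpha chain of laminins of many adult basement membranes, was at 1680.3, 1648 and 1697 CPM in CHO-S, 484, 481, 632 and 688 in A0 and 748, 690.4 and 752 in A1. No culture of A0 or A1 reached the CHO-S range. The log2 fold change was -1.54 ± 0.12 (adjusted p = 8.5e-08) for A0 and -1.203 ± 0.043 (adjusted p = 6e-17) for A1. Lamb1 and Lamc1, the beta 1 and gamma 1 chains that pair with most alpha chains, were lower in A0 by smaller amounts (-0.63 and -0.57), as in A1 (-0.74 and -0.58). Lama3, the alpha chain of an epithelial laminin, was 8.10 ± 0.72 CPM in CHO-S at exponential phase and 25.6 ± 7.37 at stationary phase, against 4.85 ± 0.939 in A0 and 4.31 ± 1.81 in A1 at the latter. Without CHO-S stationary culture 1, which had 34.1 CPM, the stationary log2 fold changes of Lama3 were -2.13 for A0 and -2.44 for A1, against -2.31 and -2.52 with it.

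Integrin subunits differed from CHO-S in both directions. Itgb1, the beta subunit shared by receptors for collagen, laminin and fibronectin, was at 1155, 1112, 1171 and 1207 CPM in A0, 1248, 1276 and 1308 in A1 and 1339, 1268 and 1299 in CHO-S at exponential phase. Its difference from CHO-S did not pass the threshold in A0 (-0.15 ± 0.078, adjusted p = 0.12) or in A1 (-0.033 ± 0.039, adjusted p = 0.5). The partners of Itgb1 for fibronectin and epithelial laminin, Itga5 and Itga3, were lower in the DG44-derived lines. Itga5 was at 436, 373 and 408 CPM in CHO-S, 134, 134, 136 and 162 in A0 and 145, 136 and 155 in A1, and the CHO-S range lay above both (-1.51 ± 0.094, adjusted p = 8.5e-09 and -1.49 ± 0.057, adjusted p = 2.3e-16). Itga3 gave -1.17 ± 0.083 (adjusted p = 3.4e-08) for A0 and -1.01 ± 0.056 (adjusted p = 1.8e-13) for A1. Itgb5, which pairs with alpha V to bind vitronectin, was at 373, 392 and 377 CPM in CHO-S, 131, 149.98, 147 and 158 in A0 and 120.4, 116 and 122 in A1, with log2 fold changes of -1.37 and -1.68. The transcripts of fibronectin itself, Fn1, were lower as well, by a log2 fold change of -2.33 in A0 and -2.04 in A1.

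At exponential phase 6 of the 13 integrins at 1 CPM or more were higher in A0 than in CHO-S and 5 in A1. Among all genes at that level, 33.8% were higher in A0 and 36.5% in A1. Itga6, Itgb4, Itga8 and the leukocyte subunit Itgae were higher in both lines, Itga1 and Itga2b in A0 and Itgav in A1. The subunits alpha 6 and beta 4 form a laminin receptor that anchors epithelial cells in hemidesmosomes. Itga6 was at 64.6, 67.5, 135 and 114 CPM in A0, 33.4, 33.6 and 34.7 in A1 and 7.29, 7.35 and 9.57 in CHO-S at exponential phase, so that the 3 lines did not overlap. The log2 fold change over CHO-S was 3.57 ± 0.26 (adjusted p = 5.1e-08) for A0 and 2.06 ± 0.10 (adjusted p = 2e-14) for A1, and at stationary phase 2.91 and 1.71. A0 cultures 3 and 4 were higher in Itga6 than cultures 1 and 2 at both phases. Itgb4 gave 1.21 ± 0.093 (adjusted p = 7.7e-08) for A0 and 0.54 ± 0.086 (adjusted p = 8.2e-06) for A1 at exponential phase. At stationary phase its levels were 43.9, 43.2, 63.8 and 59.3 CPM in A0, 65.1, 70.9 and 75.7 in A1 and 42.3, 102 and 96.2 in CHO-S, and it was called in neither line (-0.68 ± 0.26, adjusted p = 0.06 and -0.25 ± 0.28, adjusted p = 0.52). Without CHO-S culture 1 it was lower than in CHO-S in both, with -0.90 ± 0.15 (adjusted p = 0.00026) for A0 and -0.51 ± 0.076 (adjusted p = 6.8e-09) for A1. Itgae, which lies under the 5 CPM set for named genes and was added after its values were seen, was 2.10 ± 0.277 CPM in A0, 2.80 ± 0.542 in A1 and 1.16 ± 0.701 in CHO-S at exponential phase (0.85 ± 0.33, adjusted p = 0.047 and 1.24 ± 0.32, adjusted p = 0.0018). Itga8 (gene 100769007) was at 6.58, 6.47, 7.87 and 8.66 CPM in A0 and 3.03, 3.499 and 4.19 in A1 at exponential phase. CHO-S had 2 counts of Itga8 over its 3 exponential libraries and 1 count over its 3 stationary libraries. The level in A0 over that in CHO-S was 144-fold (95% exact counting interval 39.8 to 1190.0) at exponential phase, and that in A1 was 70.2-fold (95% exact counting interval 19.1 to 586). At stationary phase the ratios were 247-fold (95% exact counting interval 44.1 to 9770.0) and 120.0-fold (95% exact counting interval 21.2 to 4760.0), and these intervals cover counting error only. The platelet subunit Itga2b, 6.02 ± 0.344 CPM in A0 at exponential phase, was higher in A0 than in CHO-S at both phases (1.44 and 2.22).

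Smaller rises against CHO-S at exponential phase were those of Itga1 (0.79 ± 0.14, adjusted p = 0.00034) and Col17a1 (0.48 ± 0.12, adjusted p = 0.0045) in A0. In A1 they were those of Col3a1 (1.53 ± 0.21, adjusted p = 8e-07), Col20a1, a chain close to the fibril-associated collagens (0.97 ± 0.11, adjusted p = 3.5e-08), Col16a1 (0.25 ± 0.075, adjusted p = 0.0057) and Itgav (0.16 ± 0.052, adjusted p = 0.013). Col16a1 and Itgav lost the call without A1 culture 3 or CHO-S culture 2, with adjusted p up to 0.17 and 0.12.

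Of the 38 expressed members, 24 were called against CHO-S at both phases in A0, 5 higher at both, 18 lower at both and 1, Col8a1, in opposite directions. In A1 it was 22, with 6, 15 and 1, the last being Itgav. Among all genes at a mean of 1 CPM or more, 65.0% were called in A0 at exponential phase and 49.6% at stationary phase. In A1 these shares were 73.4% and 42.4%, and the share of all genes called at both phases was not counted. The stationary log2 fold changes of A0 against CHO-S were -10.22 for Col4a1, -10.19 for Col4a2, -3.17 for Col27a1, -3.06 for Col6a2, -2.44 for Itga5 and -2.58 for Col5a3, a minor fibrillar chain. Without CHO-S culture 1 these 6 were -10.38, -10.49, -3.15, -3.33, -2.70 and -2.60 in the same order. In A1 against CHO-S they were -12.35 for Col4a1, -10.39 for Col4a2, -2.95 for Col6a2, -2.81 for Itga5, -1.76 for Col27a1 and -1.58 for Itgb5. Rises at that phase were 4.58 in A0 and 4.93 in A1 for the gene listed as Col4a4, and in A1 2.01 for Col3a1 and 0.95 for Col12a1. Each of the calls in these sentences kept its sign and stayed past the threshold without CHO-S culture 1.

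**Figure D3:**
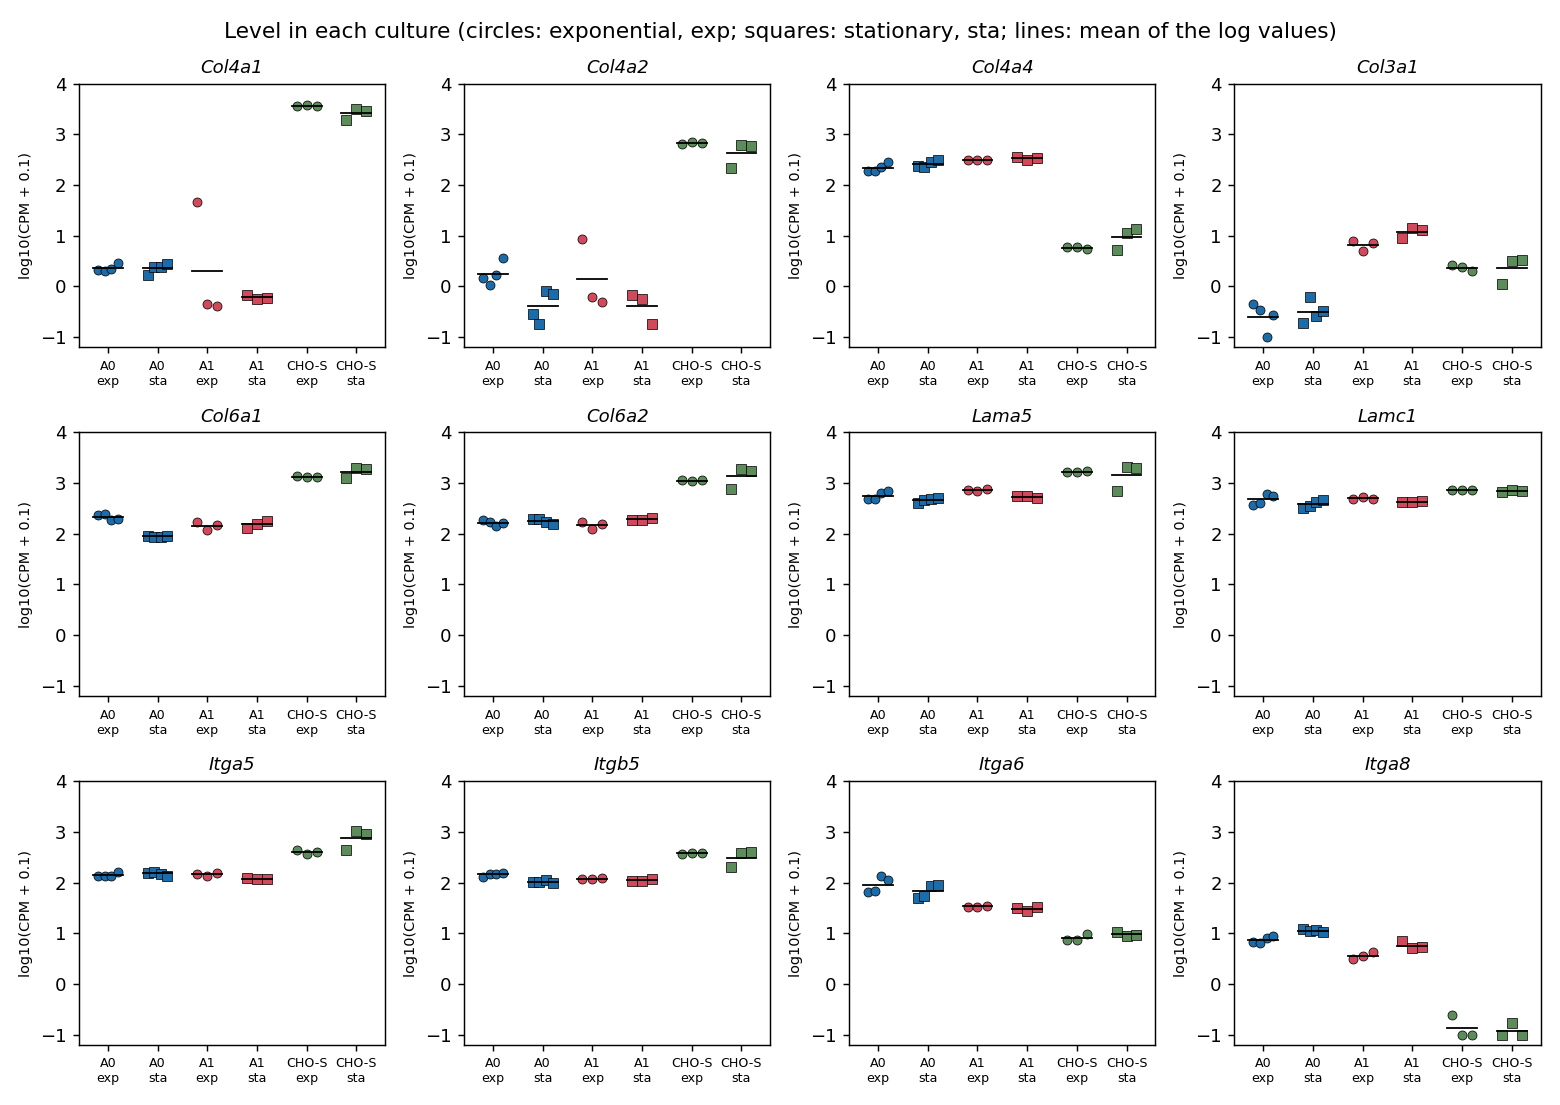
Level of 12 members in every culture, as log10(CPM + 0.1), by line and growth phase, with a line at the mean of the log values. CHO-S lies above A0 and A1 in Col4a1, Col4a2, Col6a1, Col6a2, Lama5, Itga5 and Itgb5. It lies below them in Itga6, Itga8 and the gene listed as Col4a4, and Col3a1 is lowest in A0.

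What changed between A0 and its amplified progeny A1 is the comparison the study was built on. At exponential phase, 22 of the 67 members tested were called, 10 higher and 12 lower in A1, against 25.9% of all 19946 genes (12% higher and 13.8% lower). At stationary phase it was 23 of 61, 11 higher and 12 lower, against 33.7% of 19293 genes (16% higher and 17.7% lower). Among members at a mean of 1 CPM or more it was 20 of 34 at exponential phase, where 36.6% of all genes at that level were called, and 20 of 32 at stationary phase, against 45.6%. The median log2 fold change of these members was 0.087 and 0.11 at the 2 phases, and that of all genes at the level -0.01 and -0.00032. Of the 38 expressed members, 14 were called at both phases: 5 were higher in A1 at both (Col3a1, Col16a1, Col18a1, Itgav and the gene listed as Col4a4), 5 lower at both (Col17a1, Itga1, Itga2b, Itga6 and Itga8) and 4 changed direction (Col4a1, Col6a1, Col27a1 and Itgb4). The share of all genes called between A1 and A0 at both phases was not counted. Leaving out A1 exponential culture 1 left 18 of the 20 exponential calls among expressed members, 1 of them with the opposite sign, against 17.3% of all genes called in that fit, and without A1 exponential culture 2 the count over all members was 14. With only the first library of each A0 culture 21 members were called at exponential phase, and 39 between A0 and CHO-S. Against A0 cultures 1 and 2 alone the counts between A1 and A0 were 23 and 27 at the 2 phases, and against cultures 3 and 4 alone 20 and 24. The share of all genes called is not given for the fits without A1 culture 2, with first libraries or with part of the A0 cultures. Their counts cannot tell a change in the members from a change in the whole fit.

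Col3a1 had the largest rise in A1 among members at 5 CPM or more in either line. Fibrillar type III collagen accompanies type I in soft tissues, and its only chain was at 0.346, 0.24, 0 and 0.17 CPM in A0 and 7.77, 4.78 and 7.01 in A1 at exponential phase. At stationary phase it was at 0.0931, 0.504, 0.156 and 0.225 CPM in A0 and 8.82, 14.2 and 12.7 in A1. The lines did not overlap at either phase, and the A0 values are a few reads per culture. The log2 fold changes were 5.04 ± 0.39 (adjusted p = 3.8e-07) and 5.54 ± 0.32 (adjusted p = 3e-08), and over fits that left out 1 culture they ran from 4.64 to 5.51 and from 5.32 to 6.12.

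Of the collagens that lie on or between fibres, Col16a1 was higher in A1 at both phases. It was at 235, 233, 212 and 320.1 CPM in A0 and 456, 341 and 470.3 in A1 at exponential phase, and at 129, 134, 149 and 168 in A0 and 259, 330.5 and 357 in A1 at stationary phase. The lines did not overlap at either phase (0.75 ± 0.14, adjusted p = 0.001 and 1.11 ± 0.11, adjusted p = 3.8e-06). Col12a1 was higher in A1 at stationary phase, with 131, 144, 191 and 221 CPM in A0 and 269, 299 and 309.5 in A1 (0.76 ± 0.14, adjusted p = 0.00078). At exponential phase its cultures were at 207, 227, 300.4 and 331 CPM in A0 and 351, 313 and 342 in A1, where A0 culture 4 lay within the A1 range and the test did not pass (0.33 ± 0.14, adjusted p = 0.086). Col20a1 rose at exponential phase, from 7.74, 9.31, 11.2 and 11.9 CPM in A0 to 18.1, 16.4 and 16.4 in A1 (0.76 ± 0.15, adjusted p = 0.0015), and gave 0.38 ± 0.16 (adjusted p = 0.078) at stationary phase.

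Basement membrane and network chains moved in both directions. Col18a1 was higher in A1 at stationary phase, with 6.33, 4.20, 1.403 and 2.10 CPM in A0 and 8.11, 10.2 and 9.99 in A1 (1.46 ± 0.33, adjusted p = 0.0035), and at exponential phase it was 1.90 ± 0.41 against 3.82 ± 1.70 CPM (0.99, adjusted p = 0.015). The log2 fold change of the gene listed as Col4a4 was 0.48 and 0.33 at the 2 phases, both called. It lost the exponential call when A1 culture 3 was left out (0.47, adjusted p = 0.052), and its stationary cultures overlapped, with 239.8, 231, 280.5 and 314 CPM in A0 and 356, 313 and 339 in A1.

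Col8a1 fell in A1 at stationary phase by 2.18 on the log2 scale (adjusted p = 7.9e-06). Its A0 cultures were at 170.2, 169.7, 100.1 and 84.5 CPM and those of A1 at 35.7, 25.6 and 27.4, while the exponential levels were 20.8, 21.6, 29.6 and 27.7 in A0 and 19.6, 23.98 and 19.4 in A1 (-0.25 ± 0.14, adjusted p = 0.21). Col17a1, a transmembrane collagen of hemidesmosomes, fell at both phases. It was at 19.4, 16.5, 15.9 and 20.6 CPM in A0 and 11.1, 10.4 and 13.4 in A1 at exponential phase, and at 31.7, 28.9, 20.3 and 18.8 in A0 and 7.82, 6.998 and 9.40 in A1 at stationary phase (-0.63 ± 0.14, adjusted p = 0.0036 and -1.63 ± 0.20, adjusted p = 2.3e-05). The lines were apart at both phases.

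For the type IV chains the exponential values rested on 1 culture. Col4a1 gave 2.79 ± 0.91 (adjusted p = 0.035) in A1 over A0, which rests on the 45.2 CPM of A1 culture 1. That culture held traces of genes, Col4a1 among them, chosen as high in CHO-S and low in A1 cultures 2 and 3. Without it the value was -2.76 (adjusted p = 0.00062), and the call was also lost without any one of the A0 cultures (adjusted p up to 0.11). For Col4a2 the value was 0.77 ± 0.69 (adjusted p = 0.46) with culture 1 and -2.04 (adjusted p = 0.037) without it. At stationary phase Col4a1 was lower in A1 (-2.15 ± 0.34, adjusted p = 0.00023), with A0 cultures at 1.58, 2.35, 2.34 and 2.70 CPM and A1 cultures at 0.569, 0.472 and 0.499, all of them low, and the call was lost with all 6 groups in 1 fit (-2.15, adjusted p = 0.3). Col4a2 at that phase gave -0.22 ± 0.71 (adjusted p = 0.86), with both lines under 1 CPM.

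Of the 6 laminin chains at 1 CPM or more, 3 were called between A0 and A1 at exponential phase and 0 at stationary phase. The shares of all genes at that level were 36.6% and 45.6% at the 2 phases. At exponential phase Lama5 was at 484, 481, 632 and 688 CPM in A0 and 748, 690.4 and 752 in A1 (0.35 ± 0.12, adjusted p = 0.042). Its call was lost without A0 culture 1, A0 culture 2 or any of the A1 cultures (log2 fold changes 0.28 to 0.46, adjusted p up to 0.16). Lamb2 was lower in A1 (-0.35 ± 0.10, adjusted p = 0.014), and lost the call without A1 culture 2 or 3 (adjusted p up to 0.093). Lamb1 and Lamc1 gave -0.10 ± 0.09 (adjusted p = 0.47) and 0.014 ± 0.15 (adjusted p = 0.96). Lamc1 was at 368, 412, 622 and 569.5 CPM in the A0 cultures, with cultures 3 and 4 above and cultures 1 and 2 below each of the A1 values of 480.4, 521 and 492. Against cultures 1 and 2 alone it was 0.35 (adjusted p = 0.0028), and against cultures 3 and 4 alone -0.27 (adjusted p = 0.03). At stationary phase, where edgeR called none of the 6, Lama5, Lamb1, Lamb2 and Lamc1 gave 0.18 ± 0.081 (adjusted p = 0.1), -0.25 ± 0.11 (adjusted p = 0.11), 0.19 ± 0.092 (adjusted p = 0.14) and 0.13 ± 0.11 (adjusted p = 0.39). Of these 6 chains, 2 had an unadjusted p under 0.05, and DESeq2 called 0. Against A0 cultures 1 and 2 alone, 4 of these chains were called: Lama5 (0.27, adjusted p = 0.002), Lamb1 (-0.45, adjusted p = 4e-06), Lamb2 (0.33, adjusted p = 0.00039) and Lamc1 (0.33, adjusted p = 0.00021). That fit leaves out the spread between the A0 pairs, and the share of all genes called in it is not given. Against cultures 3 and 4 alone Lamc1 changed sign (-0.047, adjusted p = 0.56).

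Among the laminin-binding integrins, Itga6 was below its A0 level in A1, whatever the phase. Its exponential cultures were at 64.6, 67.5, 135 and 114 CPM in A0 and 33.4, 33.6 and 34.7 in A1, and its stationary cultures at 49.98, 55.1, 86.7 and 90.5 in A0 and 31.6, 27.2 and 33.0 in A1. Each A1 culture lay below each A0 culture of the same phase, and the log2 fold changes were -1.49 ± 0.21 (adjusted p = 0.00013) and -1.22 ± 0.19 (adjusted p = 0.00017). Against A0 cultures 1 and 2 alone they were -0.97 (adjusted p = 6.2e-06) and -0.80 (adjusted p = 3e-08). Itgb4, the beta 4 partner of Itga6, was lower in A1 at exponential phase and higher at stationary phase. It was at 124, 119, 144 and 119 CPM in A0 and 83.9, 65.0 and 92.4 in A1 at exponential phase (-0.66 ± 0.12, adjusted p = 0.00085), and at 43.9, 43.2, 63.8 and 59.3 in A0 and 65.1, 70.9 and 75.7 in A1 at stationary phase (0.42 ± 0.13, adjusted p = 0.021). Its stationary call did not hold without A1 culture 2 (0.42, adjusted p = 0.066) or culture 3 (0.36, adjusted p = 0.11).

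Subunits that bind RGD-containing proteins and collagen shifted one by one. Itgav, the alpha V subunit of vitronectin receptors, was higher in A1 at both phases. It was at 108, 109.7, 129 and 127 CPM in A0 and 153, 153 and 172 in A1 at exponential phase, and at 57.2, 53.4, 62.0 and 62.4 in A0 and 128, 124 and 119 in A1 at stationary phase, with no overlap (0.42 ± 0.095, adjusted p = 0.004 and 1.06 ± 0.076, adjusted p = 2.4e-07). Itga8 fell from 6.58, 6.47, 7.87 and 8.66 CPM in A0 to 3.03, 3.499 and 4.19 in A1 at exponential phase (-1.04 ± 0.18, adjusted p = 0.00065) and was lower at stationary phase, with 12.3, 11.2, 11.3 and 10.3 CPM in A0 and 6.83, 4.95 and 5.16 in A1 (-1.03 ± 0.15, adjusted p = 0.00013). Neither phase showed an overlap. Itga2b was at 5.62, 6.39, 6.19 and 5.86 CPM in A0 and 3.52, 2.22 and 2.97 in A1 at exponential phase (-1.05 ± 0.19, adjusted p = 0.00079), and at 7.91, 9.66, 12.5 and 11.5 and 3.98, 4.95 and 5.33 at stationary phase (-1.12 ± 0.19, adjusted p = 0.00035). Itga1, the alpha subunit of a collagen receptor, was at 26.7, 25.2, 19.6 and 17.4 CPM in A0 and 11.8, 8.26 and 9.07 in A1 at stationary phase (-1.23 ± 0.17, adjusted p = 8.8e-05), and at 9.01, 10.9, 10.2 and 11.8 in A0 and 6.87, 7.08 and 6.78 in A1 at exponential phase (-0.60 ± 0.14, adjusted p = 0.0061).

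Itgb1 and its partners Itga5 and Itga3 were not called at exponential phase and were lower in A1 at stationary phase. Itgb1 was 0.14 ± 0.083 (adjusted p = 0.26) at exponential and -0.27 ± 0.066 (adjusted p = 0.0049) at stationary phase. Itga5 was 0.038 ± 0.10 (adjusted p = 0.81) and -0.38 ± 0.078 (adjusted p = 0.0019), with stationary cultures at 155, 165, 151 and 137 CPM in A0 and 122, 115 and 117 in A1, and the stationary call was lost with all 6 groups in 1 fit (-0.36, adjusted p = 0.14). Itga3 was at 84.6, 92.9, 61.6 and 64.2 CPM in A0 and 54.2, 61.1 and 57.8 in A1 at that phase (-0.40 ± 0.13, adjusted p = 0.028), and the call was lost without A0 culture 1 or 2 or any of the A1 cultures (log2 fold changes -0.49 to -0.28, adjusted p up to 0.12). At exponential phase Itga3 gave 0.17 ± 0.10 (adjusted p = 0.21). Itgb5 was -0.30 ± 0.09 (adjusted p = 0.023) at exponential phase, a call lost without A0 culture 2 or any of the A1 cultures (adjusted p up to 0.098), and 0.085 ± 0.077 (adjusted p = 0.44) at stationary phase.

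**Figure D4:**
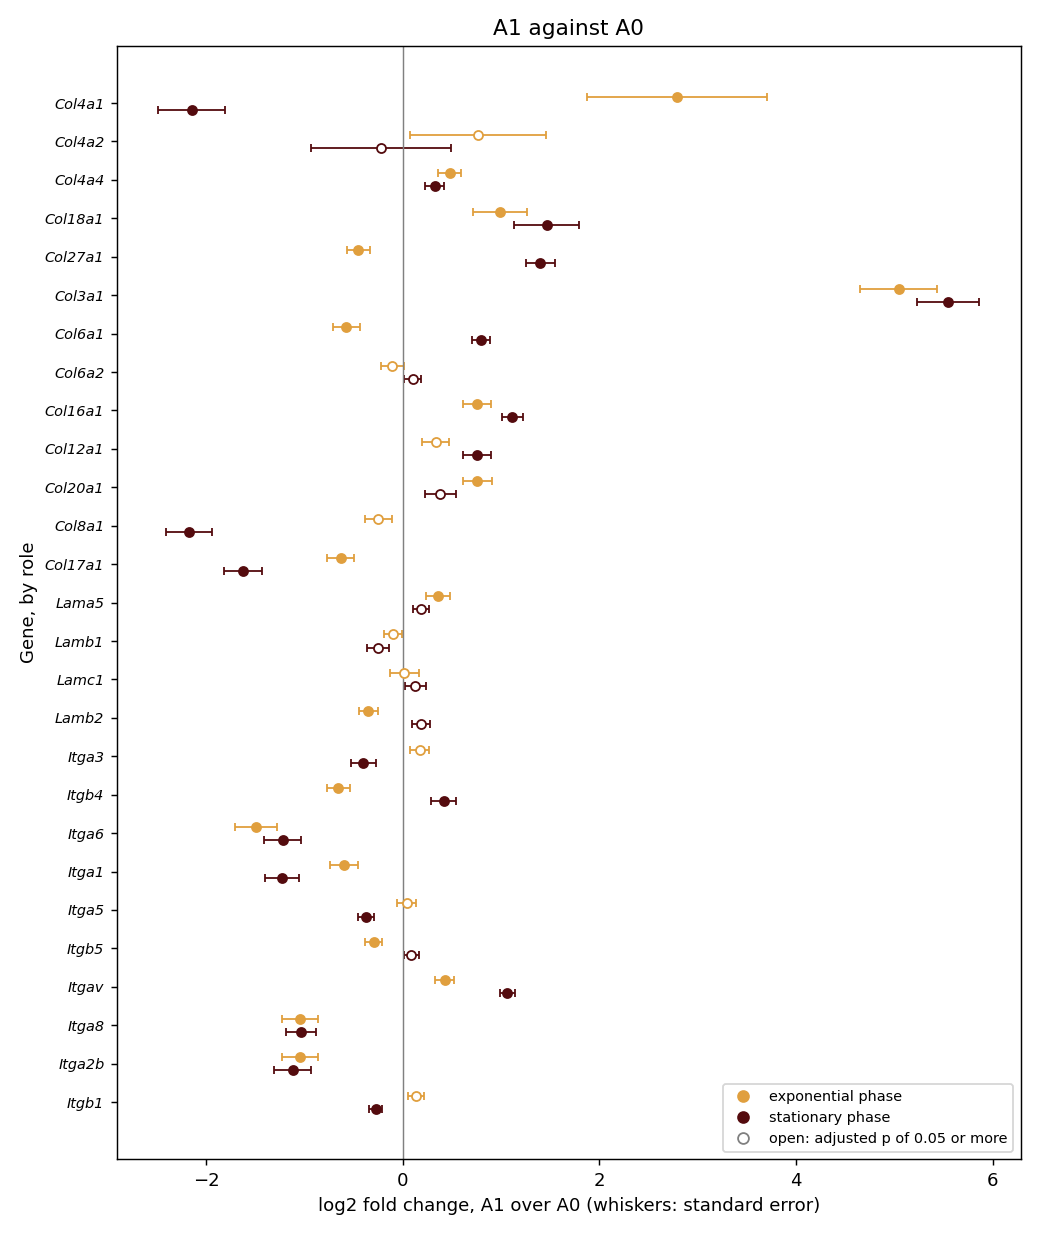
Log2 fold change of A1 over A0 with its standard error for the named members at exponential and stationary phase, with open circles where the adjusted p was 0.05 or more. Col3a1 lies furthest to the right, Itga6, Itga8, Itga2b, Itga1 and Col17a1 lie left of 0 at both phases, and Col27a1, Col6a1 and Itgb4 lie on opposite sides.

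Whether the difference between A1 and A0 depended on the growth phase was tested with the interaction term over both lines. It was called for 12 of the 69 members tested, 6 with a positive and 6 with a negative sign, against 8.94% of all 20953 genes (5.04% positive and 3.9% negative). A positive value means that the stationary change was higher in A1 than in A0. Without A1 culture 1, A1 culture 2 or A1 culture 3 the count was 6, and without A0 culture 2 it was 7. The share of all genes called in these fits is not given. Col27a1 gave 1.85 ± 0.19 (adjusted p = 2e-06), Col6a1 1.37 ± 0.18 (adjusted p = 4.1e-05), Itgb4 1.07 ± 0.18 (adjusted p = 0.00067) and Itgav 0.64 ± 0.12 (adjusted p = 0.0021). These 4 and Col8a1 (-1.92 ± 0.29, adjusted p = 0.00018) were called in each fit that left out 1 culture.

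The first 4 had in common a lower level at stationary phase in A0. Col27a1 was at 29.4, 34.9, 35.3 and 30.9 CPM in A0 at exponential phase and 8.19, 11.2, 13.6 and 10.9 at stationary phase, while in A1 it was at 27.5, 22.3 and 21.8 and then at 25.7, 31.7 and 30.0. It was lower in A1 than in A0 at exponential phase (-0.45 ± 0.12, adjusted p = 0.0094, a call lost without A1 culture 2 or 3, adjusted p up to 0.075, and with the first library of each A0 culture, -0.19, adjusted p = 0.33) and higher at stationary phase (1.397 ± 0.15, adjusted p = 7.1e-06). Col6a1 was at 239, 248, 184 and 196 CPM in A0 and 173, 116 and 147 in A1 at exponential phase, and at 89.5, 87.7, 88.0 and 90.8 in A0 and 132, 159 and 176 in A1 at stationary phase. It went from -0.58 ± 0.14 (adjusted p = 0.0061) to 0.80 ± 0.089 (adjusted p = 1.3e-05), and its exponential call did not hold when A1 culture 2 was dropped (-0.44, adjusted p = 0.052) and against A0 cultures 3 and 4 alone (-0.39, adjusted p = 0.074). Its partner chain Col6a2 was called neither for the interaction (0.21 ± 0.16, adjusted p = 0.49) nor between A1 and A0 at exponential (-0.11 ± 0.12, adjusted p = 0.55) or stationary phase (0.10 ± 0.088, adjusted p = 0.43).

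The other interaction calls were less firm. Lamb2 gave 0.54 ± 0.14 (adjusted p = 0.013) and Itgb5 0.38 ± 0.12 (adjusted p = 0.044). Col17a1 gave -0.996 ± 0.25 (adjusted p = 0.013), Itga3 -0.58 ± 0.17 (adjusted p = 0.035), Itga5 -0.41 ± 0.13 (adjusted p = 0.044) and Itgb1 -0.41 ± 0.11 (adjusted p = 0.019). Each of these 6 lost the call without 1 or more of the A1 cultures, with adjusted p up to 0.097, 0.21, 0.098, 0.2, 0.25 and 0.15 in that order over all fits that left out 1 culture, and Itgb5, Itga3, Itga5 and Itgb1 also lost it without 1 or more of the A0 cultures. Col4a1 (-4.95 ± 1.52, adjusted p = 0.042) rests on A1 exponential culture 1 and was 0.54 (adjusted p = 0.75) without culture 1 of A1.

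**Figure D5:**
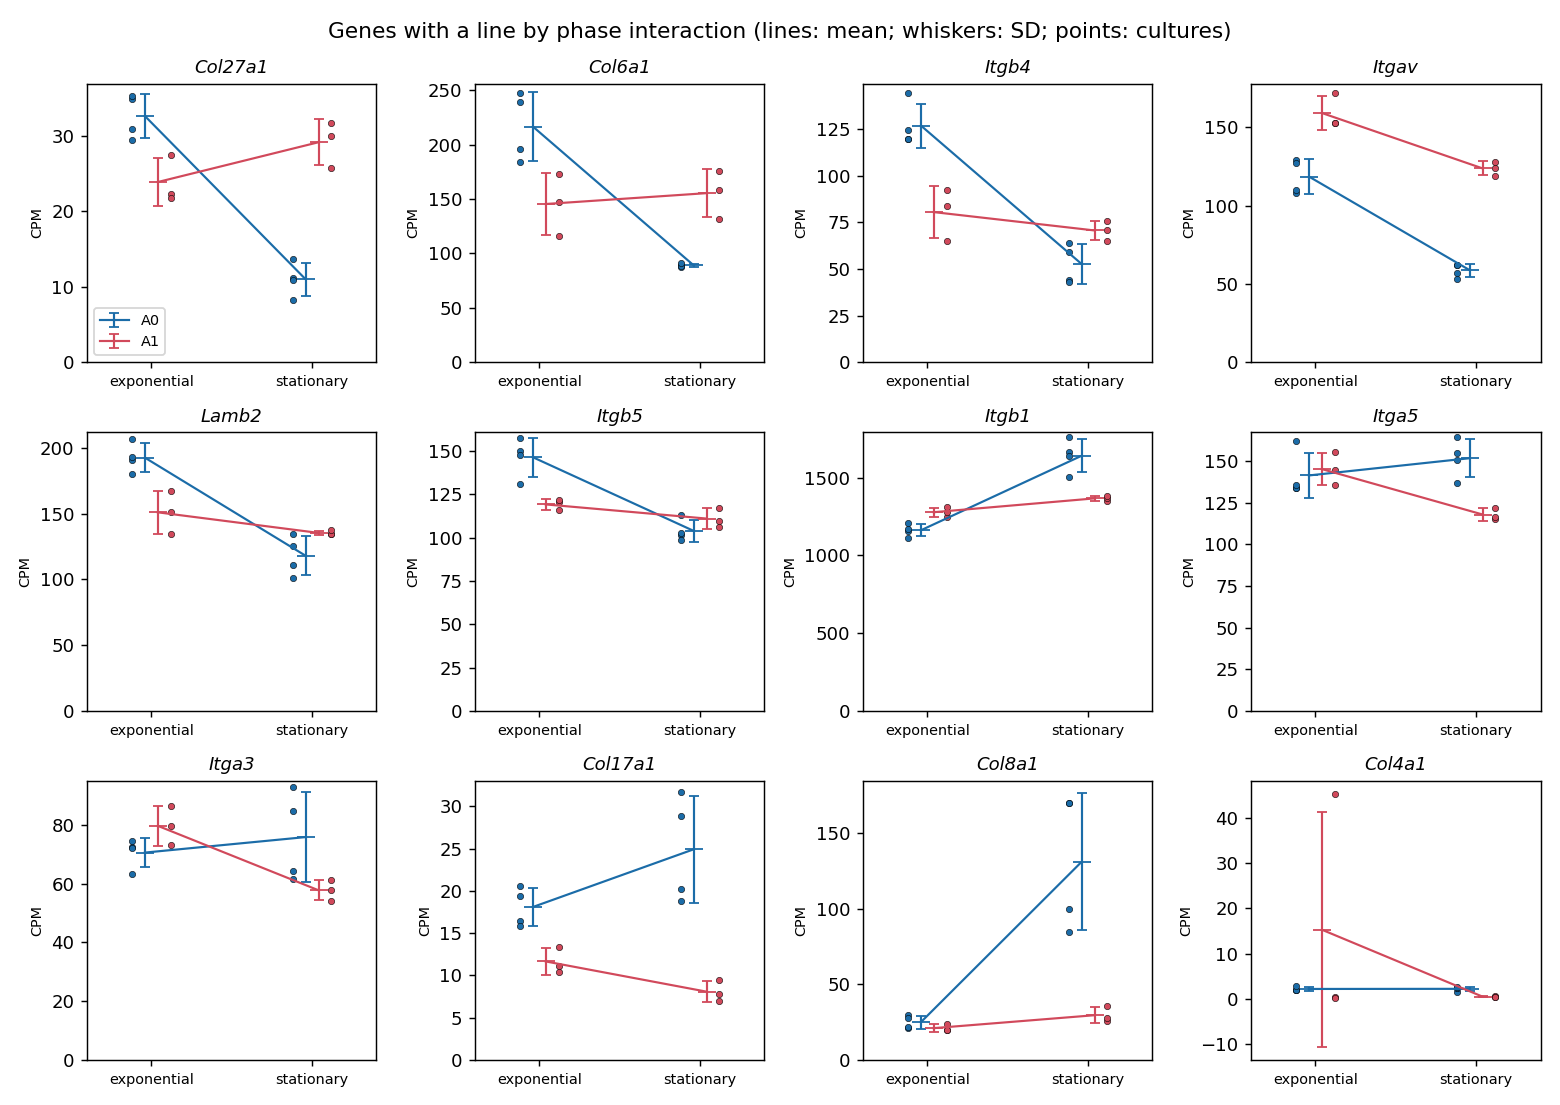
CPM of the 12 genes with a line by phase interaction, in A0 and A1 at exponential and stationary phase, with points for cultures, lines for means and whiskers for the SD. Col27a1, Col6a1 and Itgb4 cross between the phases, Col8a1 rises in A0 far more than in A1, and the Col4a1 spread in A1 comes from culture 1.

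Within A0, 23 of 67 members differed between stationary and exponential phase, 10 higher and 13 lower at stationary phase, against 37.7% of all 20267 genes (17.7% higher and 20.1% lower). Samples with the same culture number deviated together from their group means, and with the culture as a block the count was 30. The calls and fold changes given here are from the fit without that block. With only the first library of each exponential culture the count was 20. The share of all genes called with the block or with first libraries is not given. Col8a1 rose most, by 2.38 ± 0.20 (adjusted p = 2.3e-07), and Itga1 (1.07), Col7a1, the anchoring fibril collagen (0.82), Itga2b (0.78), Itga8 (0.60) and Itgb1 (0.49) rose less. Falls were -1.58 for Col27a1, -1.29 for Col6a1, -1.28 for Itgb4, -1.02 for Itgav, -0.80 for Col16a1, -0.72 for Lamb2, -0.64 for Col12a1 and -0.51 for Itgb5. Each of these 14 was called in every fit that left out 1 culture. Col17a1 (0.45 ± 0.16, adjusted p = 0.035) lost its call without A0 exponential culture 2 or 3 or stationary culture 1 or 2 (adjusted p up to 0.14).

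Within A1, 22 of 59 members differed, 12 higher and 10 lower at stationary phase, against 33.4% of 18548 genes (15.6% higher and 17.8% lower). Without exponential culture 1 it was 18 of 58, against 30.1% of all genes. Col18a1 rose by 1.35 ± 0.20 (adjusted p = 2.7e-06), Col3a1 by 0.92 ± 0.17 (adjusted p = 5.9e-05), Col7a1 by 0.63 ± 0.10 (adjusted p = 1.2e-05), Col8a1 by 0.49 ± 0.11 (adjusted p = 0.00075) and Col6a2 by 0.36 ± 0.076 (adjusted p = 0.00029). Lama5 (-0.42 ± 0.053, adjusted p = 2.3e-07), Itga3 (-0.44), Itgav (-0.35), Itga5 (-0.28) and Lamc1 (-0.19) fell, and all 10 of these were called in each fit that left out 1 culture. With all 6 groups in 1 fit, where the count over all members was 5, only Col18a1, Col3a1 and Itgav of the 10 were called, and the other 7 had adjusted p from 0.076 to 0.48. Itga8 (0.64), Itga7 (0.49), Itga1 (0.48), Col16a1 (-0.40) and Col17a1 (-0.51) lost their call without 1 or more cultures: Itga8 without exponential or stationary culture 1, Itga1 and Col16a1 without exponential culture 3 or stationary culture 1, Itga7 without exponential culture 2 or stationary culture 2 or 3, and Col17a1 without exponential culture 3 or stationary culture 2 (adjusted p up to 0.071, 0.1, 0.066, 0.08 and 0.082 for these 5). The fall of Col4a1 (-4.87 ± 1.10, adjusted p = 0.00073) was lost without exponential culture 1 (0.65, adjusted p = 0.49).

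Within CHO-S the result depended on 1 culture. With all cultures 4 of 56 members were called, each higher at stationary phase, against 13.3% of 17367 genes (6.81% higher and 6.48% lower). Without stationary culture 1, the one with 1038026 counts, 23 of 55 were called, 19 higher and 4 lower, against 47.7% of all genes. The 4 calls with all cultures were Lama3 (1.49 ± 0.17, adjusted p = 0.0036), Itga1 (1.37 ± 0.25, adjusted p = 0.015), the gene listed as Col4a4 (0.99 ± 0.19, adjusted p = 0.015) and Col5a3 (0.63 ± 0.15, adjusted p = 0.035). They were called without that culture too, with values of 1.41, 1.22, 1.05 and 0.66. Without CHO-S exponential culture 2 no member was called by edgeR (10 had an unadjusted p under 0.05), and without any other single culture apart from stationary culture 1 it was 1. Itga5, at 436, 373 and 408 CPM at exponential and 449, 1069 and 928 at stationary phase, was among the members called only without culture 1 (1.30 ± 0.044, adjusted p = 1.3e-44), as were Col6a1 (0.52 ± 0.037, adjusted p = 1.3e-22), Col6a2 (0.70 ± 0.038, adjusted p = 4.9e-30) and Col4a1 (-0.24 ± 0.038, adjusted p = 4e-08). Whether CHO-S changed with the growth phase in another way than A0 or A1 was not tested.

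Genes that work with these proteins were looked at as lists, at a mean of 1 CPM or more in the groups compared. Of the enzymes and chaperones that modify and secrete collagen, 10 of 21 were called between A1 and A0 at exponential phase, 1 higher and 9 lower in A1, and 9 of 21 at stationary phase, all 9 lower, with medians of -0.14 and -0.22. The collagen chaperone Serpinh1 gave -0.059 and -0.28 and was called at neither phase. Other matrix glycoproteins went the opposite way: 8 of 14 were called at exponential phase, all 8 higher in A1, and 10 of 15 at stationary phase, 8 higher and 2 lower, with medians of 0.48 and 0.74. Lum and Dcn, proteoglycans that bind collagen fibres, were among them. Lum was at a mean of 2.41 CPM in A1 and 0.0404 in A0 at exponential phase, and at 5.46 and 0 CPM at stationary phase. Dcn gave a log2 fold change of 1.55 and 2.73, and Fn1 0.31 and 1.27. Periostin (Postn) was at 3.91 CPM in A1 and 0.12 in A0 at exponential phase, and at 7.10 and 0.057 at stationary phase. Among all genes at this level, 17.4% higher and 19.1% lower in A1 were called at exponential phase and 21.9% higher and 23.6% lower at stationary phase.

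The proteins that couple integrins to actin had 7 of 21 called at exponential phase, 2 higher and 5 lower in A1, and 13 of 22 at stationary phase, 6 higher and 7 lower. Talin 1 (Tln1), which activates integrins, was 0.62 and 0.31 on the log2 scale, and paxillin (Pxn) -0.50 and -0.40, all called. Other matrix receptors had 6 of 10 called at exponential phase, 3 in each direction, and 4 of 10 at stationary phase, 1 higher and 3 lower, with Cd36 at 1.44 and 2.69 and the syndecan Sdc1 at -0.59 and -0.76. Against CHO-S at exponential phase, the matrix glycoproteins were called in 10 of 11 cases in A0 (1 higher, 9 lower) and in 14 of 14 in A1 (6 higher, 8 lower), against 65.0% and 73.4% of all genes at this level (33.8% higher and 31.2% lower in A0, 36.5% higher and 36.9% lower in A1). The pathway genes named here were picked for their role after their values were known.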

How the data were processed

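RNA-seq of 24 libraries from 20 culture samples was analysed. The authors deposited 1 table of raw read counts per gene, made with STAR 2.5.4b and HTSeq 0.7.2 on the assembly C_griseus_v1.0 from a stranded mRNA kit. The strand setting of the counting was not given in the sources used here, and reads that map to several places are left out by such counting, which lowers genes with close copies. The 5 summary lines of the table were left out of library sizes, and no column of the table was left without a sample (0 unmapped). The count table gives no coordinates. Of the 73 members, 72 were found by gene number in the RefSeq table of CriGri-PICRH-1.0, 69 under the same symbol. No pair of libraries in a group agreed within sampling noise (smallest chi-square per degree of freedom 1.68 within a group), so none was counted as a copy.

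The libraries of each A0 exponential culture were summed. Counts were scaled by TMM to CPM, and edgeR 4.0.16 was run on genes with 1 or more counts in 2 or more cultures and non-zero variance (quasi-likelihood test, two-sided, Benjamini-Hochberg over all genes tested) in R 4.3.3, with only the groups compared in the fit. The code was tested on simulated data. Alternatives were DESeq2 1.42.0, its size factors in edgeR, no filter, filterByExpr, all 6 groups in 1 fit, a block for the culture number, the first library of each A0 culture, A0 cultures 1 and 2 or 3 and 4 alone, and leaving out each culture. Leaving CHO-S stationary culture 1 out of the fit of all groups was chosen after seeing the data. Between the A0 phases, samples with the same number deviated together from their group means (correlations 0.37, 0.28, 0.26 and 0.18 over 12826 genes). For culture 4 the correlation with another number was higher. Because the A0 cultures also fell into pairs at stationary phase, these values cannot show that single numbers paired the samples.

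Fold changes are printed for called members with a mean of at least 5 CPM in a compared group, up to 8 rises and 8 falls per comparison, and for a fixed list of chains between A1 and A0. The members, the gene lists and this rule were chosen with earlier results of these data known. A sum of levels, a role or a pathway list was described by counts and medians, with no test of its own. The values of some genes that the rule covers are not reported here.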

Additional observations from a re-analysis of the deposited data

Results flagged for a closer look

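A single culture lay far from the other 3 of its group in 2 of the 64 groups of 4 cultures tested, where 3.2 would be flagged by chance (about 1 in 20 groups). Itga5 was high in A0 exponential culture 4, with a gap to the next culture of 0.93 of the whole range, and Col7a1 in A0 stationary culture 2, with 0.889, both above Dixon's critical value at the level of chance named here. The values of Itga5 were 134, 134, 136 and 162 CPM, and those of Col7a1 49.98, 70.9, 49.2 and 47.4 CPM.

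The interaction of line and growth phase in A1 and A0 was past the threshold in edgeR's quasi-likelihood test for 12 members. Of these, 5 (Col27a1, Col6a1, Itgb4, Itgav and Col8a1) were past it in each fit that left out 1 culture number, and the other 7 lost the call in 1 or more of these fits. The interaction was positive for Col27a1 (1.85 on the log2 scale), Col6a1 (1.37), Itgb4 (1.07), Itgav (0.64), Lamb2 (0.54) and Itgb5 (0.38). It was negative for Col4a1 (-4.95, but 0.54, adjusted p = 0.75 without culture 1 of A1, and lost without any one of the A0 cultures), Col8a1 (-1.92), Col17a1 (-0.996), Itga3 (-0.58), Itga5 (-0.41) and Itgb1 (-0.41). In the A0 subsets, with 2 A0 cultures at each phase, the term of Col27a1 was 2.01 against cultures 1 and 2 and 1.73 against cultures 3 and 4.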

How the results depend on the processing

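Over 155 pairs of a named gene and a comparison, 103 kept their direction and their side of the threshold in every alternative run. Of 2410 single values, 2215 did so, 160 lost the call, 15 gained one and 20 changed sign. The count between A1 and A0 at exponential phase ran from 14 to 21 when 1 culture was left out. In A1 between phases the count of 22 was 5 with all 6 groups in 1 fit and 13 when CHO-S stationary culture 1 was left out of that fit as well. In CHO-S between phases the count of 4 was 9 with DESeq2, 8 with filterByExpr, 2 with the replicate block, 12 with all 6 groups, 17 with all 6 groups less CHO-S stationary culture 1, and 0 to 23 with 1 culture left out. The interaction count of 12 was 6 with all 6 groups and 6 to 11 with 1 culture left out. The replicate block gave 22 calls for A1 against A0 in exponential cultures and 27 in stationary ones, 40 and 25 between A0 and CHO-S, 33 and 25 between A1 and CHO-S, 30 within A0, 24 within A1 and 16 for the interaction. Apart from the correlations within A0, the culture numbers were not shown to pair the samples. Among the alternative fits, the share of all genes called is given only for pairs of groups without CHO-S stationary culture 1 or A1 exponential culture 1. The other counts cannot tell a change in the members from a change in the whole fit. Values that changed sign between A1 and A0 at exponential phase were Col6a2 (0.016 against A0 cultures 3 and 4), Lamc1 (-0.054 with first libraries, -0.27 against A0 cultures 3 and 4) and Itga5 (-0.041 against A0 cultures 3 and 4). With 1 culture left out they were -2.76 to 3.37 for Col4a1, -2.04 to 1.31 for Col4a2, -0.20 to 0.0014 for Col6a2, -0.10 to 0.14 for Lamc1 and -0.014 to 0.11 for Itga5. At stationary phase they were Col4a2 (0.11 with the block, 1.30 against A0 cultures 1 and 2, -0.57 to 0.30 with 1 culture left out), Col6a2 (-0.029 against A0 cultures 1 and 2) and Lamc1 (-0.047 against A0 cultures 3 and 4). Col4a1 ran from -5.47 to 0.65 within A1 and from -5.52 to 0.54 for the interaction. The cause of these moves was not tested, other than that some fits hold fewer samples. With limits of 0.5 and 2 CPM in place of 1 CPM, 35 to 38 and 29 to 33 members per group counted as expressed. Members near 1 CPM rest on few reads, and the shallowest culture had a depth at which 3 counts are close to 3 CPM.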
